A study of Mus musculus with 9 samples.

Results

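The chaperonin containing TCP-1 (CCT, also called TRiC) is the ATP-driven folding chamber of the eukaryotic cytosol, and its 8 subunits are encoded in the mouse by Tcp1, Cct2, Cct3, Cct4, Cct5, Cct6a, Cct7 and Cct8. These 8 genes, found by name among the 54532 genes of the deposited table, were followed through 4T1 cells given Au/Cu-TCPP(Fe)-PEG, Cu-TCPP(Fe)-PEG or medium. All 8 had enough counts to be tested. The names alone define the set, but the complex was selected on earlier log2 fold changes of these same libraries. The fold changes and adjusted p-values of the subunits are therefore a description of these libraries and not independent evidence.

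CCT is built of stacked rings in which each of the different subunits has its fixed place, and it closes over an unfolded protein when ATP is bound and hydrolysed. Actin and tubulin cannot reach their native form without it, and several WD40-repeat proteins and cell cycle regulators are folded by it as well. Prefoldin hands nascent actin and tubulin to the chamber, phosducin-like proteins modulate its cycle, and the tubulin folding cofactors take over tubulin that leaves it.

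RNA was sequenced from 9 libraries of 4T1, a mouse mammary carcinoma line of triple-negative type, grown in high-glucose DMEM with serum. Au_TCPP cells received Au/Cu-TCPP(Fe)-PEG, labelled as a glucose-like oxidase and a glutathione (GSH) consumer. Cu_TCPP cells received Cu-TCPP(Fe)-PEG, labelled as a GSH consumer, and Control cells received medium. Treatment lasted 24 h, each group had 3 libraries, and no dose is stated in the labels. The labels do not tell whether the libraries of a group are from separate cultures, and the p-values then reflect a spread that may be purely technical. Library totals lay between 15477324 and 17494776 counts. In Au_TCPP libraries 8.85 to 9.77% of the counts fell on ribosomal protein genes, against 5.14 to 5.34% in Cu_TCPP and 5.38 to 5.67% in Control libraries. Au_TCPP replicate 2 had 2.37% of its counts on mitochondrially encoded genes, while the other 8 libraries had 1.09 to 1.47%. Whether these shifts bear on the subunits was not tested.

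The subunit genes lie on 8 different chromosomes of the mm10 build. Tcp1 (chr17:12915701-12925067, plus strand), Cct3 (chr3:88297116-88321767, plus), Cct4 (chr11:22990519-23003780, plus), Cct6a (chr5:129786998-129846371, plus) and Cct7 (chr6:85451514-85468475, plus) are read in the forward direction. Cct2 (chr10:117051001-117063814, minus), Cct5 (chr15:31590800-31601804, minus) and Cct8 (chr16:87483326-87495873, minus) are read from the other strand. The deposited table gives Cct6a the biotype processed transcript, although it encodes the zeta subunit. Exons of 4 members overlap exons of a gene on the opposite strand: Tcp1 shares 571 nt with Acat3 and 141 nt with Mrpl18, Cct6a 452 nt with Psph, Cct7 214 nt with Pradc1 and Cct8 192 nt with Usp16. The labels do not state whether counting was strand-aware, so reads of these stretches cannot be assigned with certainty. The testis-enriched relative Cct6b had 1 to 9 counts per library, Cct8l1 0 to 2, the pseudogene Cct3-ps1 0 to 5 and Tcp1-ps1 0, against 71293 to 107938 counts on the 8 subunits together.

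Start-site windows from RefSeq (GRCm38.p6, from 250 bases before to 50 bases after the annotated start) were held for 7 of the 8 genes, all but Cct4. The window is shown for the 3 subunits with the highest fold changes in Au_TCPP against Control, Cct7 (chr6:85451255-85451554, plus strand), Cct3 (chr3:88296885-88297184, plus) and Cct6a (chr5:129787106-129787405, plus), and for the subunit with the lowest, Cct2 (chr10:117063803-117064102, minus), a choice made after their values were seen. Capitals mark every match, on either strand, to a CCAAT box (CCAAT), a heat shock element of 2 units (GAANNTTC or TTCNNGAA) or an ETS site (CCGGAAGT).
Cct7: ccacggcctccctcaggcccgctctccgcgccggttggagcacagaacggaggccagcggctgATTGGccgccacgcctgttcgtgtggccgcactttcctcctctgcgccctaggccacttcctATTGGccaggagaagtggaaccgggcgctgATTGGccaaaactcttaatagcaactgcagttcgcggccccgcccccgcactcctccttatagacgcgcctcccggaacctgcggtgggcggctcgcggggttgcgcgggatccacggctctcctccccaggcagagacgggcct
Cct3: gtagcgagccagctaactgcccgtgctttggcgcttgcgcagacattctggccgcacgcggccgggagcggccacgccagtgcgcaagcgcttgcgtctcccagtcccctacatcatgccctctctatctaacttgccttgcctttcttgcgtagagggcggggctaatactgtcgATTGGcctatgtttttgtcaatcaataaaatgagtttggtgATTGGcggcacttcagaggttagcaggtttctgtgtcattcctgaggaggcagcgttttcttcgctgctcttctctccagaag
Cct6a: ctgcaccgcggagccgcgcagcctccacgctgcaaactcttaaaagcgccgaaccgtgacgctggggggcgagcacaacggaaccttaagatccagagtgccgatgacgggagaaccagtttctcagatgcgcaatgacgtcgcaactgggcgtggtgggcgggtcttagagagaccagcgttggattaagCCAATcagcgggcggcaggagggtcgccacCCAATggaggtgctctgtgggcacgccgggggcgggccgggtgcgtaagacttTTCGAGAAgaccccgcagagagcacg
Cct2: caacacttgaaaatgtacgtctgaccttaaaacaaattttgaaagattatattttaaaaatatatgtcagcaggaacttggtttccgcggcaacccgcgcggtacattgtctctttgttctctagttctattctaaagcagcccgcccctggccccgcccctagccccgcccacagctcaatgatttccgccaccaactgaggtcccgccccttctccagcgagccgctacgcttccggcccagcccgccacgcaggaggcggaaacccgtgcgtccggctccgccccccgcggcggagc
Cct7 holds 3 CCAAT matches, Cct3 and Cct6a hold 2 each, Cct6a also holds a heat shock element of 2 units, and Cct2 holds none of the 3 motifs. Over the 7 windows, CCAAT was present in 4, those of Tcp1, Cct3, Cct6a and Cct7, against 37.4% of all 32851 windows in the RefSeq table. The heat shock element of 2 units was present in 2 of the 7 (Cct5 and Cct6a), against 15.1% of all windows, and the form extended to 3 units in 0 of the 7, against 0.603%. ETS sites were present in 2 (Tcp1 and Cct8), against 3.89% of all windows, and the antioxidant response element core (TGACNNNGC) in 2 (Tcp1 and Cct6a), against 12.4%. The E-box CACGTG was present in 0 of the 7, against 7.15% of all windows. A match is a description of these letters and not a binding site.

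Transcripts of the complex were most abundant in Au_TCPP cells, intermediate in Cu_TCPP cells and lowest in Control cells. Levels are given as CPM, counts relative to the library total after scaling by TMM, a factor computed from the bulk of the genes. Summed over the 8 subunits, Au_TCPP libraries had 7930, 6554 and 8507 CPM, Cu_TCPP libraries 4756, 4693 and 4862 CPM, and Control libraries 3957, 4001 and 3981 CPM. The order of the groups was the same without scaling, where the subunits took 0.648, 0.582 and 0.675% of the unscaled counts in Au_TCPP, 0.518, 0.506 and 0.519% in Cu_TCPP and 0.443, 0.446 and 0.443% in Control libraries. Within Au_TCPP, replicate 2 was the lowest library for all 8 subunits and replicate 3 the highest for 7. The libraries are from bulk cultures, in which a change in RNA per cell and a change in the mix of cells cannot be told apart.

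**Figure D1:**
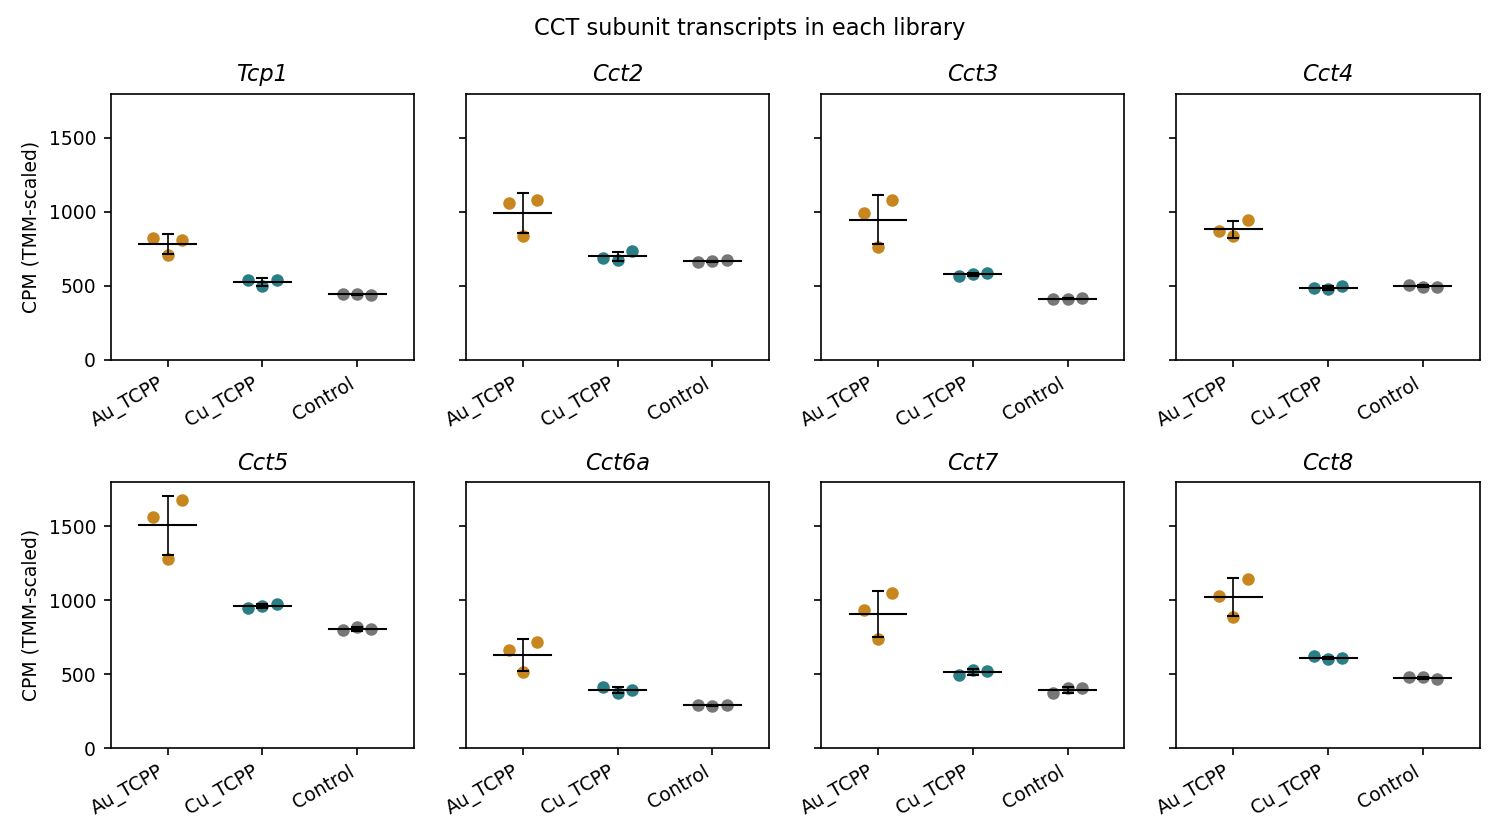
Each panel plots 1 subunit gene, with CPM (TMM-scaled) on the vertical axis and the Au_TCPP, Cu_TCPP and Control libraries side by side; points are libraries, long bars are means and error bars are SD (n = 3). In every panel the 3 Au_TCPP points lie above the other 6, and in the Cct4 panel the Cu_TCPP and Control points overlap.

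The gamma, zeta, eta and theta subunits stood higher in both treated groups. Cct3 (gamma) had 994, 759.95 and 1082 CPM in Au_TCPP, 568, 579 and 589 CPM in Cu_TCPP, and 411, 412 and 414 CPM in Control libraries. Cct7 (eta) had 934, 738.5 and 1049 CPM in Au_TCPP, 496, 530.1 and 521 CPM in Cu_TCPP, and 373, 406 and 404 CPM in Control libraries. For each of these genes the 3 groups formed separate steps with no overlap. Cct6a (zeta) had 660.1, 513 and 719 CPM in Au_TCPP, 410.4, 375 and 394 CPM in Cu_TCPP, and 288, 286 and 291 CPM in Control libraries. Cct8 (theta) had 1029, 889 and 1146 CPM in Au_TCPP, 619.7, 603 and 609 CPM in Cu_TCPP, and 481, 479 and 466 CPM in Control libraries. Here too each group lay clear of the others, with the widest spread in Au_TCPP. The fitted log2 fold changes of Au_TCPP against Control were 1.20 ± 0.11 for Cct3 (SE), 1.20 ± 0.11 for Cct7, 1.13 ± 0.11 for Cct6a and 1.10 ± 0.09 for Cct8, which are 2.29-, 2.30-, 2.18- and 2.15-fold. For Cu_TCPP against Control they were 0.49 ± 0.11, 0.39 ± 0.11, 0.45 ± 0.11 and 0.36 ± 0.09 in the same order of genes, or 1.40-, 1.31-, 1.36- and 1.28-fold. The SE rests on 1 estimate of spread per gene shared by all 9 libraries, although the groups differed in spread. For Cct3 the SD was 166 CPM in Au_TCPP, 10.3 in Cu_TCPP and 1.17 in Control.

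The alpha and epsilon subunits followed the same order of groups with smaller steps. Tcp1 (alpha), the subunit that gave the complex its name, had 826, 705 and 812 CPM in Au_TCPP, 539, 497 and 539 CPM in Cu_TCPP, and 444, 440.2 and 439 CPM in Control libraries. Cct5 (epsilon), the most counted subunit, had 1560.1, 1282 and 1676 CPM in Au_TCPP, 948, 961 and 975 CPM in Cu_TCPP, and 796, 820.1 and 806 CPM in Control libraries. The groups did not overlap for either gene. Against Control, Tcp1 was 1.77-fold higher in Au_TCPP and 1.19-fold higher in Cu_TCPP, and Cct5 1.87-fold and 1.19-fold. Both Cu_TCPP differences lay near the threshold in the fit of all 9 libraries. By edgeR's quasi-likelihood test with Benjamini-Hochberg adjustment, adjusted p was 0.0301 for Tcp1 and 0.0491 for Cct5. Fitted to only the 6 libraries compared, the same test gave 0.000575 for Tcp1 and 0.000316 for Cct5. Of 20 alternative fits, which include those leaving out 1 library, Tcp1 lost its call in 5 and Cct5 in 9.

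The beta and delta subunits differed from the rest in the Cu_TCPP libraries. Cct2 (beta) had 1059, 833 and 1081 CPM in Au_TCPP, 689.9, 675 and 735 CPM in Cu_TCPP, and 659, 664 and 670.4 CPM in Control libraries. Its Cu_TCPP libraries lay just above the Control libraries, but the difference did not pass the test (log2 fold change 0.08, 95% interval -0.14 to 0.29, edgeR adjusted p = 0.577). Cct4 (delta) had 868, 834 and 944 CPM in Au_TCPP, 486, 474 and 501 CPM in Cu_TCPP, and 505, 494 and 491 CPM in Control libraries. Cu_TCPP and Control overlapped for Cct4, and the interval of their difference was -0.20 to 0.14 around a log2 fold change of -0.03 (edgeR adjusted p = 0.803). In Au_TCPP, by contrast, Cct4 was 1.78-fold its level in Control, and Cct2 1.49-fold.

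With the gold-bearing material, 8 of 8 subunits were called higher than in Control at an adjusted p under 0.05 (edgeR), while 34.4% of the 13915 genes tested were called higher and 34.7% lower. The median log2 fold change was 1.00 over the subunits and -0.01 over all genes. The lowest fold change, that of Cct2 (0.58), was above that of 73.6% of all genes, and the highest, that of Cct7 (1.20), above 90.4%, so the subunits lay in the upper part of the range. No Au_TCPP library overlapped a Control library for 8 of 8 subunits, which held in the higher direction for 35.3% of all genes. Without Au_TCPP replicate 2, the 8 subunits were called with log2 fold changes of 0.66 to 1.31. With library totals alone as the scale, the median of all genes moved to -0.43 and the split of all calls to 2629 higher and 7096 lower, against 4783 and 4828 with TMM. On that scale 7 of the 8 subunits stayed called, from 0.40 for Tcp1 to 0.77 for Cct7, and Cct2 did not pass (0.15, edgeR adjusted p = 0.0924).

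Au_TCPP cells also stood above Cu_TCPP cells, with 8 of 8 subunits called higher by edgeR, beside 34.6% of all genes called higher and 31.3% lower. Log2 fold changes ran from 0.50 for Cct2 to 0.86 for Cct4, with a median of 0.69, and the median of all genes was 0.04. Cct4 was 1.81-fold higher, the largest of the 8 in this comparison, with edgeR adjusted p = 3.3e-07. The 8 genes showed no overlap between Au_TCPP and Cu_TCPP libraries, which held in the higher direction for 34.4% of all genes. With library totals alone the median of all genes was -0.33, all calls split into 2830 higher and 6526 lower against 4814 and 4362 with TMM, and Cct2 was the 1 subunit that did not pass (0.12, edgeR adjusted p = 0.165).

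With the copper material alone, 6 of 8 subunits were called higher than in Control and 0 lower by edgeR, where 19.2% of all genes were called higher and 21.2% lower. The median log2 fold change was 0.31 over the subunits and -0.01 over all genes. Cct3 had the highest value (0.49, above 87.7% of all genes) and Cct4 the lowest (-0.03, above 48.2%). Groups did not overlap in the higher direction for 7 of 8 subunits, all but Cct4, and for 29.4% of all genes. Without Control replicate 1 only 3 passed, as Tcp1, Cct5 and Cct7 were lost. Without Control replicate 2 or 3 or Cu_TCPP replicate 1 or 3, 4 passed, as Tcp1 and Cct5 were lost, and without Cu_TCPP replicate 2 or Au_TCPP replicate 1, 5 passed, as Cct5 was lost. The 3 comparisons share libraries in pairs, so their fold changes are not independent of each other.

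**Figure D2:**
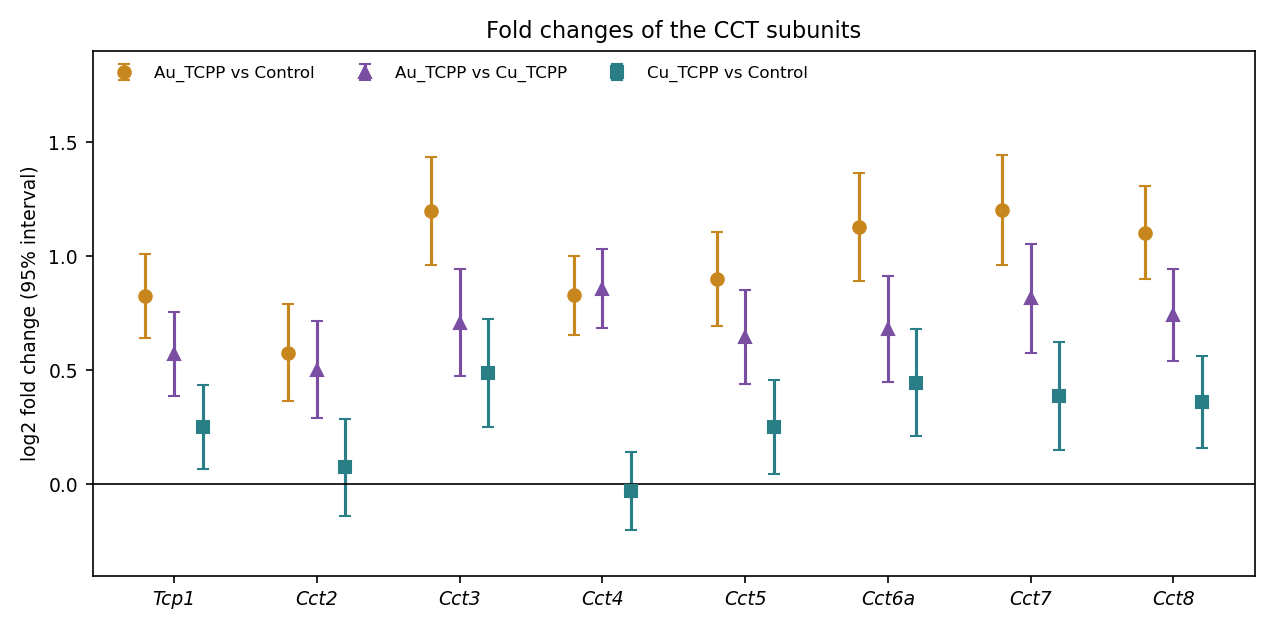
Points give the log2 fold change of each subunit (vertical axis) in Au_TCPP against Control, Au_TCPP against Cu_TCPP and Cu_TCPP against Control, from the edgeR fit of all 9 libraries; bars are 95% intervals. All intervals of the Au_TCPP comparisons lie above 0, and those of Cct2 and Cct4 in Cu_TCPP against Control include 0.

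In the authors' deposited table, 8 subunits in Au_TCPP against Control, 8 in Au_TCPP against Cu_TCPP and 6 in Cu_TCPP against Control (all but Cct2 and Cct4) had an adjusted p under 0.05. The authors' deposited table gives log2 fold changes of 0.56 to 1.19, 0.44 to 0.80 and -0.01 to 0.50 for these comparisons. The labels do not name their test.

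The make-up of the subunit transcripts shifted along with their sum. Cct2 took 13.4, 12.7 and 12.7% of the 8 subunits' counts in Au_TCPP, 14.5, 14.4 and 15.1% in Cu_TCPP, and 16.7, 16.6 and 16.8% in Control libraries. Its share was lower in each treated group than in Control with no overlap. Cct3 took 12.5, 11.6 and 12.7% in Au_TCPP, 11.9, 12.3 and 12.1% in Cu_TCPP, and 10.4, 10.3 and 10.4% in Control libraries, so that its share was higher in both treated groups. Cct6a, Cct7 and Cct8 likewise had larger shares in both treated groups than in Control, with no overlap. Cct4 took 10.9, 12.7 and 11.1% in Au_TCPP, 10.2, 10.1 and 10.3% in Cu_TCPP, and 12.8, 12.3 and 12.3% in Control libraries. Its share was below Control in all 3 Cu_TCPP libraries, while Au_TCPP replicate 2 reached the range of Control. Cct5 had the narrowest range, 19.6 to 20.5% over all 9 libraries, although its share in Au_TCPP lay below that in both other groups with no overlap. The share of Tcp1 was lower in Au_TCPP than in Control with no overlap, and overlapped between Cu_TCPP and Control. Counts rise with transcript length, so these shares compare libraries and not subunits.

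**Figure D3:**
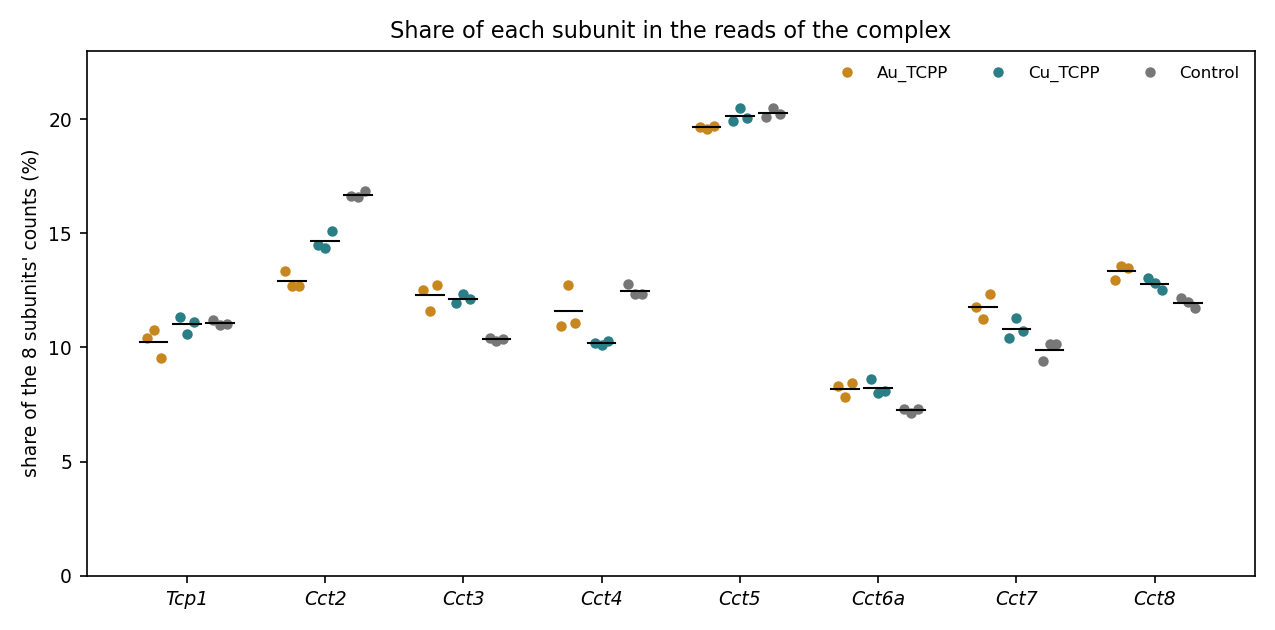
The vertical axis gives the share of each subunit in the summed counts of the 8 subunits (%); points are the Au_TCPP, Cu_TCPP and Control libraries and bars are means. Cct2 lies at 12.7 to 13.4% in Au_TCPP, 14.4 to 15.1% in Cu_TCPP and 16.6 to 16.8% in Control libraries, Cct3, Cct6a, Cct7 and Cct8 lie above Control in both treated groups, and Cct5 stays between 19.6 and 20.5%.

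In the ring of the budding yeast complex, the subunits that correspond to Cct3, Cct6a, Cct7 and Cct8 lie side by side and bind ATP weakly, and those that correspond to Tcp1, Cct2, Cct4 and Cct5 make up the opposite side. The genes were grouped in this way after their values were seen, so the following is a description with no test. Cct3, Cct6a, Cct7 and Cct8 together took 45.6, 44.2 and 47.0% of the subunit counts in Au_TCPP, 44.0, 44.4 and 43.4% in Cu_TCPP, and 39.3, 39.6 and 39.6% in Control libraries. All 6 treated libraries lay above all 3 Control libraries. Au_TCPP and Cu_TCPP overlapped, since Au_TCPP replicate 2 lay within the range of Cu_TCPP. Against Control, these 4 genes had log2 fold changes of 1.10 to 1.20 in Au_TCPP and 0.36 to 0.49 in Cu_TCPP, while the other 4 had 0.58 to 0.90 in Au_TCPP and -0.03 to 0.25 in Cu_TCPP. In both comparisons, which share the Control libraries, the ranges of the 2 groups of genes did not meet. Between Au_TCPP and Cu_TCPP they did, at 0.68 to 0.82 for the 4 genes and 0.50 to 0.86 for the other 4.

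Levels of different subunits were compared per length. On the FPKM scale of the deposited table, Cct5 and Cct2 led in all 3 groups. Cct5 averaged 533 ± 74.9 FPKM in Au_TCPP, 350.1 ± 5.19 in Cu_TCPP and 287 ± 4.94 in Control libraries (SD, n = 3). Cct7, the lowest, averaged 131 ± 23.4 FPKM in Au_TCPP, 76.6 ± 2.66 in Cu_TCPP and 57.2 ± 2.92 in Control libraries. The highest level was 4.07 times the lowest in Au_TCPP, 4.57 times in Cu_TCPP and 5.02 times in Control. In Control the order was Cct5, Cct2, Cct8, Cct4, Tcp1, Cct6a, Cct3 and Cct7, and no neighbours in it overlapped. Cct4 and Cct6a, and Cct6a and Tcp1, overlapped in range in Cu_TCPP, and in Au_TCPP only Cct5 and Cct2, and Cct8 and Cct4, were neighbours without overlap. Within single libraries, neighbours kept their order in all 3 libraries of a group, apart from Tcp1 and Cct3 in Au_TCPP, which kept it in 2. Cct6a stood above Tcp1 in each library of both treated groups, although the ranges of the 2 genes overlapped, and below it in Control.

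The order rests on the length assigned to each gene. The deposited lengths run from 2557 nt for Cct2 to 6778 nt for Cct7 and equal the union of all annotated exons, while the principal transcript of Cct7 has 2441 nt and that of Cct3 1977 nt against a deposited 6370 nt. Per kilobase of the principal transcript, a scale chosen after seeing the data, Cct5 and Cct2 still led, with 436 and 339 CPM per kb in Control. Cct3 followed Cct2 with 209 CPM per kb in Control. Cct6a was last with 118 CPM per kb and the highest level was 3.71 times the lowest, but no transcript of Cct6a is tagged as principal in the annotation, and its longest transcript (2454 nt) was used in its place. The level of Cct3 relative to the others therefore depends on the length used, whereas that of Cct5 and Cct2 at the top did not change between these scales.

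**Figure D4:**
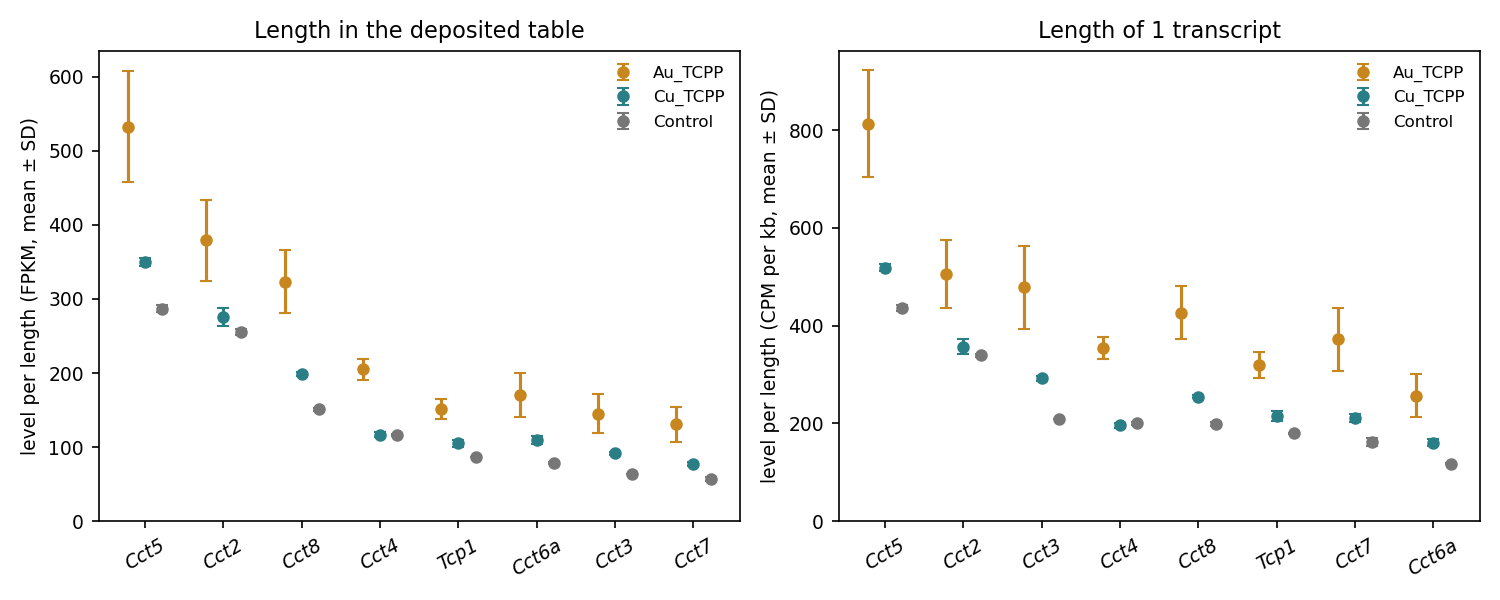
Mean level per length of each subunit (± SD, n = 3) in Au_TCPP, Cu_TCPP and Control libraries, in FPKM with the deposited gene lengths on the left and in CPM per kb of a principal transcript on the right; genes are ordered by their level in Control. Cct5 leads on both scales, at 287 FPKM and 436 CPM per kb in Control, while Cct3 stands next to the lowest gene on the left and next to Cct2 on the right.

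Pearson's r of log2 CPM with the mean of the other 7 subunits, over 9 libraries that share their treatment groups, was 0.999 for Cct5, 0.967 for Cct2 and 0.926 for Cct4, the lowest. Genes outside the complex were also set against the mean of all 8 subunits, a mean that includes the subunit compared and so favours it. Of 8791 such genes, 1 had a higher r with it than Cct5 had, 414 than Cct2 and 923 than Cct4. For the remaining subunits the number ran from 7 for Cct8 to 77 for Cct3. Among 8791 other genes with at least 10 CPM, the 6 whose pattern over the 9 libraries was most like the mean of the subunits were Zwint, Psma5, Psma2, Stip1, Psmc2 and Akirin1, with r of 0.999 for Zwint and 0.997 for Akirin1. Zwint, a kinetochore-associated protein, averaged 391 ± 80.8 CPM in Au_TCPP, 178 ± 7.69 in Cu_TCPP and 133 ± 3.32 in Control libraries (SD, n = 3). Psma5, an alpha subunit of the proteasome core, averaged 337 ± 53.7 CPM in Au_TCPP, 181 ± 5.72 in Cu_TCPP and 137 ± 4.75 in Control. Stip1, the adaptor between HSP70 and HSP90, averaged 1055 ± 229 CPM in Au_TCPP, 426 ± 4.03 in Cu_TCPP and 315 ± 2.07 in Control. The 9 points share 3 group means, so these values describe a profile over groups.

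Genes of the complex's partners were counted by lists that were also chosen with earlier results known. Over all genes tested, 34.4% were called higher and 34.7% lower in Au_TCPP against Control. The shares were 34.6% and 31.3% in Au_TCPP against Cu_TCPP, and 19.2% and 21.2% in Cu_TCPP against Control. With library totals alone all genes split into 2629 higher and 7096 lower in Au_TCPP against Control, and 2830 and 6526 against Cu_TCPP. Of the 9 genes tested for prefoldin, which delivers substrates, and for prefoldin-like proteins, 8 were called higher and 1 lower in Au_TCPP against Control by edgeR, with a median log2 fold change of 0.81. The 8 were the 6 subunits of prefoldin and the prefoldin-like Uxt and Pdrg1. Pfdn5 averaged 107 ± 9.11 CPM in Au_TCPP and 47.0 ± 3.81 in Control (log2 fold change 1.19), and Pfdn4 55.5 ± 0.99 and 25.7 ± 1.89 CPM (1.11). Uri1, a prefoldin-like protein, was the gene called lower, at 41.9 ± 3.97 CPM in Au_TCPP and 49.3 ± 1.16 in Control. Against Cu_TCPP, 7 of 9 were called higher and 1 lower, and in Cu_TCPP against Control 4 were higher and 0 lower. With library totals alone 5 were called higher and 1 lower in Au_TCPP against Control, with a median of 0.39, and 4 higher and 1 lower against Cu_TCPP. In Cu_TCPP, Pfdn5 averaged 41.4 ± 2.0 CPM and was not called against Control (log2 fold change -0.18, edgeR adjusted p = 0.126), and its difference between Au_TCPP and Cu_TCPP was called (1.38).

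Of the phosducin-like and thioredoxin-like partners, 2 of the 3 tested were called higher in Au_TCPP than in Control, beside 34.4% of all genes. In Cu_TCPP against Control 0 were higher and 0 lower, beside 19.2% and 21.2% of all genes. Txndc9, a thioredoxin-like protein that binds CCT, averaged 108 ± 2.79 CPM in Au_TCPP, 67.1 ± 3.96 in Cu_TCPP and 61.9 ± 1.72 in Control. Pdcl3 averaged 64.1 ± 4.24 CPM in Au_TCPP, 40.7 ± 0.94 in Cu_TCPP and 41.4 ± 1.62 in Control, a difference from Control that did not pass with library totals alone (0.21, edgeR adjusted p = 0.0607). On that scale the list had 1 gene higher, Txndc9, and 1 lower, Pdcl, in Au_TCPP against Control. The tubulin folding cofactors did not move as a block. Tbca and Tbcb, which bind beta- and alpha-tubulin, were higher in Au_TCPP than in Control by log2 fold changes of 1.06 and 0.99, while Tbcd, part of the machinery that assembles the tubulin dimer, averaged 16.9 ± 1.32 CPM in Au_TCPP and 32.4 ± 1.47 in Control (-0.94). In all, 3 of 6 cofactors were called higher and 2 lower in this comparison, beside 34.4% and 34.7% of all genes. Tbce changed sign with library totals alone (0.39 with TMM, -0.04 without), where 2 cofactors were higher and 3 lower. In Cu_TCPP against Control 1 of 6 was called, Arl2, a small GTPase partner of Tbcd, at 35.03 ± 1.51 CPM in Cu_TCPP and 44.1 ± 3.23 in Control.

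Substrates were called in both directions in each comparison, as were all genes. Of 16 actins and tubulins tested, 7 were called higher and 3 lower in Au_TCPP against Control, beside 34.4% and 34.7% of all genes. Against Cu_TCPP 3 were higher and 5 lower, beside 34.6% and 31.3%. In Cu_TCPP against Control 7 were higher and 2 lower, beside 19.2% and 21.2%. With library totals alone the balance in the Au_TCPP comparisons shifted along with that of all genes. On that scale 4 were higher and 7 lower in Au_TCPP against Control, where all genes split into 2629 and 7096. Against Cu_TCPP 2 were higher and 9 lower, where all genes split into 2830 and 6526. In Cu_TCPP against Control 6 were higher and 2 lower on that scale, where all genes split into 2267 and 3187. Tuba4a averaged 417 ± 71.0 CPM in Au_TCPP, 187 ± 10.0 in Cu_TCPP and 82.2 ± 3.55 in Control. Tubb2a was raised with the gold-bearing material, at 98.6 ± 17.7 CPM, and not called with the copper material, at 29.6 ± 1.58 CPM against 27.5 ± 1.87 in Control. Tubb4b averaged 349 ± 61.0 CPM in Au_TCPP, 571 ± 26.8 in Cu_TCPP and 329 ± 13.1 in Control, and was called higher in Cu_TCPP and not in Au_TCPP against Control, with a called difference between the materials (-0.71 for Au_TCPP against Cu_TCPP). Tubb4b changed sign with library totals alone in Au_TCPP against Control and was called lower (0.09 with TMM, -0.34 without, edgeR adjusted p = 0.00347). Actb averaged 2153 ± 163 CPM in Au_TCPP, 2625 ± 62.4 in Cu_TCPP and 1659 ± 32.3 in Control, and its Au_TCPP difference from Control changed sign with library totals alone (0.38 with TMM, -0.05 without). Some of the tubulin and actin genes are close paralogs, so how reads were divided among those is uncertain.

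Among 17 other reported substrates tested, 6 were called higher and 6 lower in Au_TCPP against Control, beside 34.4% and 34.7% of all genes. Against Cu_TCPP 6 were higher and 7 lower, beside 34.6% and 31.3%. In Cu_TCPP against Control 5 were higher and 3 lower, beside 19.2% and 21.2%. These counts are therefore not read as a trait of the substrates. Plk1, a mitotic kinase, averaged 31.7 ± 5.49 CPM in Au_TCPP, 151 ± 8.76 in Cu_TCPP and 137 ± 5.09 in Control, a log2 fold change of -2.12 against Control. Vhl, the substrate-binding part of a ubiquitin ligase, averaged 54.4 ± 4.50 CPM in Au_TCPP, 27.0 ± 0.43 in Cu_TCPP and 21.4 ± 1.74 in Control. Ppp2r2a, a WD40-repeat subunit of protein phosphatase 2A, averaged 202 ± 41.3 CPM in Au_TCPP, 135 ± 5.83 in Cu_TCPP and 85.5 ± 2.37 in Control. With library totals alone the split was 4 higher and 11 lower in Au_TCPP against Control, and 3 higher and 10 lower against Cu_TCPP. On that scale all genes split into 2629 higher and 7096 lower, and 2830 higher and 6526 lower. Rptor, the mTORC1 scaffold, was lower in Au_TCPP, at 50.6 ± 6.22 CPM against 92.5 ± 2.69 in Control.

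The mitochondrial chaperonin, a relative of CCT that is built of Hspd1 with the lid Hspe1, showed larger differences than any CCT subunit. Hspe1 averaged 959 ± 117 CPM in Au_TCPP, 191 ± 14.8 in Cu_TCPP and 124 ± 2.22 in Control, with log2 fold changes of 2.95 and 0.62 against Control. Hspd1 averaged 3305 ± 924 CPM in Au_TCPP, 1125 ± 74.7 in Cu_TCPP and 669 ± 29.4 in Control. Of the heat shock factors, Hsf1 was higher in Cu_TCPP, at 62.5 ± 4.99 CPM against 41.5 ± 1.67 in Control, and was not called in Au_TCPP, at 37.1 ± 3.85 CPM, although it was called lower there with library totals alone (-0.59, edgeR adjusted p = 3.87e-05). Hsf2 averaged 55.3 ± 11.9 CPM in Au_TCPP, 25.2 ± 2.22 in Cu_TCPP and 22.2 ± 2.18 in Control, and was called in Au_TCPP and not in Cu_TCPP against Control, with a called difference between the materials (1.13). Hsbp1, a binding protein of these factors, was called higher in Au_TCPP, a call lost with library totals alone (0.12, edgeR adjusted p = 0.440). Of the 3 tested CCT-related genes of the Bardet-Biedl chaperonin-like family, Bbs12 averaged 14.9 ± 3.82 CPM in Au_TCPP, 30.4 ± 0.86 in Cu_TCPP and 16.2 ± 1.29 in Control, and Mkks was called higher and Bbs10 lower in Au_TCPP against Control. When scaled by library totals alone, Mkks was not called (0.24, edgeR adjusted p = 0.368) and both Bbs10 and Bbs12 were called lower (Bbs12 -0.53, edgeR adjusted p = 0.0143). Cct6b and Cct8l1 were too low to be tested.

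**Figure D5:**
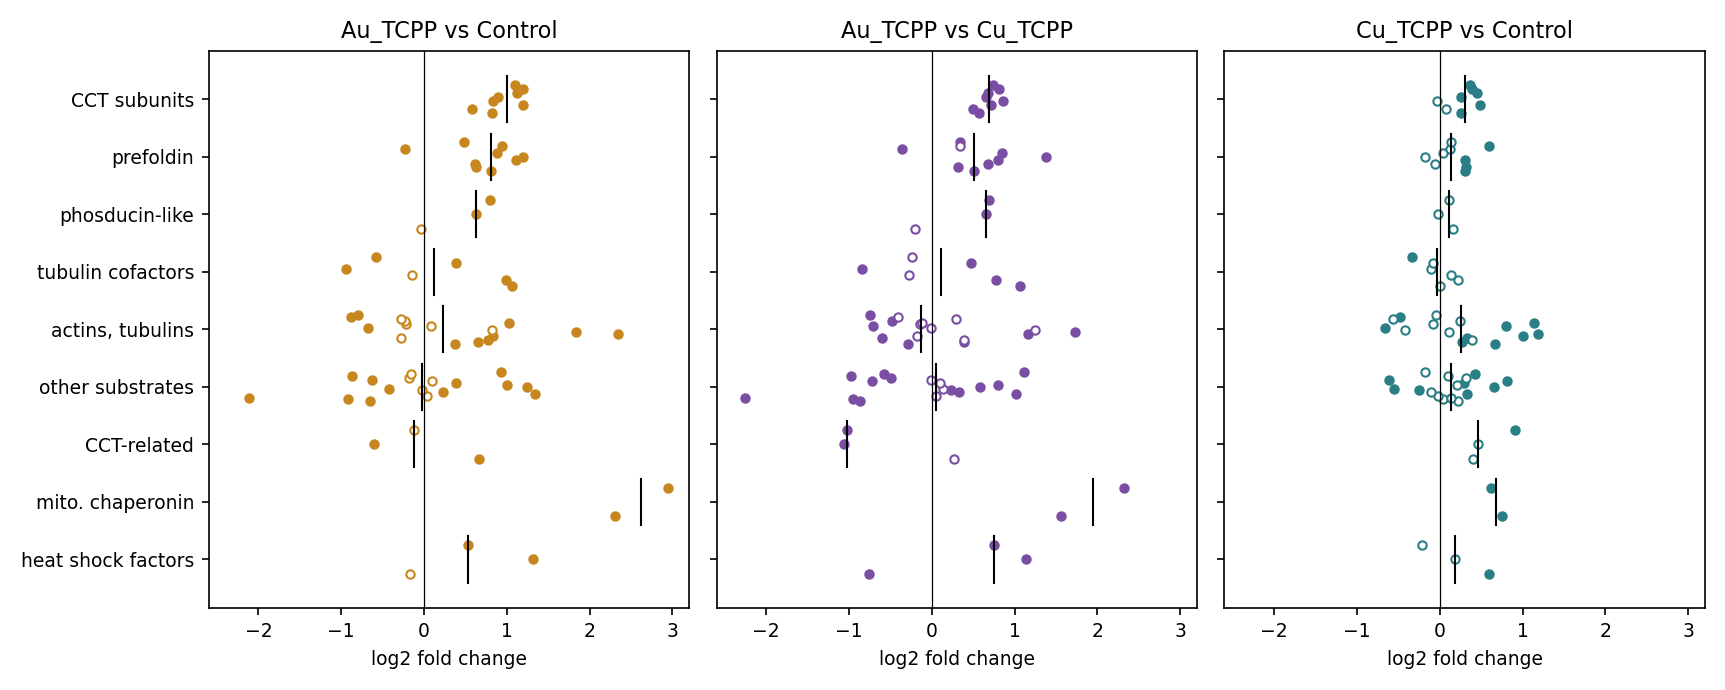
Each point is a tested gene at its log2 fold change (horizontal axis) in Au_TCPP against Control, Au_TCPP against Cu_TCPP and Cu_TCPP against Control, by list; filled points are called at an edgeR adjusted p under 0.05 and bars are medians. CCT subunits lie at a median of 1.00, 0.69 and 0.31, with Cct4 at -0.03 in Cu_TCPP against Control, and the others on the positive side. Prefoldin and prefoldin-like genes largely follow in the Au_TCPP comparisons (medians of 0.81 and 0.51), and less so in Cu_TCPP against Control (0.13). Actins, tubulins and other substrates spread to both sides.

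Epithelial markers had a summed level of 4488 to 5390 CPM in Au_TCPP, 2853 to 3189 in Cu_TCPP and 2945 to 3204 in Control libraries. Of the 8 markers 7 were tested, while the basal keratin Krt14 had at most 1.34 CPM and was at 0 in Cu_TCPP replicate 1 and Control replicate 1. The sum came in the main from Krt8, Krt18 and Krt7. In Cu_TCPP against Control 1 marker was called higher (Krt8) and 4 lower, beside 19.2% and 21.2% of all genes. In Au_TCPP against Control 7 were called higher, beside 34.4% of all genes. With library totals alone 4 were higher and 1 lower (Cdh1), where all genes split into 2629 higher and 7096 lower. Macrophage markers summed to 61.2 to 77.0 CPM in Au_TCPP, 15.4 to 19.8 in Cu_TCPP and 27.8 to 31.4 in Control, from Cd68 and Mrc1 in the main. Cd68 had 53.2 to 75.1 CPM in Au_TCPP, 9.12 to 13.3 in Cu_TCPP and 25.1 to 29.0 in Control libraries, and Mrc1 1.82 to 8.65 CPM in Au_TCPP, 5.25 to 6.26 in Cu_TCPP and 1.94 to 2.50 in Control libraries, while Adgre1 was at 0 in all 9 libraries and Ptprc at most 0.17 CPM. Fibroblast markers summed to 26.7 to 31.7 CPM in Au_TCPP, 16.3 to 19.7 in Cu_TCPP and 35.1 to 40.6 in Control, mostly Pdgfra. Lymphocyte markers reached at most 0.509 CPM and endothelial markers at most 0.394 CPM in any library.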

How the data were processed

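Polyadenylated RNA of 9 libraries of 4T1 cells, 3 per group as the titles number them, was sequenced on an Illumina HiSeq2000, per the labels. Bowtie 0.12.9, Cufflinks 2.1.1, HTSeq and, as the build, mm10 are named in the submitters' processing notes. The deposited table holds raw counts per gene and library, and FPKM that the authors computed from count, gene length and library size. A factor of 0.875 to 1.238 per library, of origin not stated in the labels, also enters FPKM. It was high where the TMM factor was low: 0.875 beside 1.118 in Control replicate 1, and 1.238 beside 0.793 in Au_TCPP replicate 3. FPKM, and limma on FPKM, are therefore not free of such scaling between libraries. The table also holds the authors' log2 fold changes, and their p-values, raw and adjusted. Group means in it, made by the authors, were not used. The deposited gene lengths were compared with GENCODE M21, which holds 54409 of the identifiers, 98.3% of these at the same coordinates.

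The test was edgeR 4.0.16's quasi-likelihood test under R 4.3.3 (TMM factors, filterByExpr, 1 robust fit over the 9 libraries with group means, Benjamini-Hochberg adjustment over 13915 genes, called at an adjusted p under 0.05). The biological coefficient of variation was 10.6% (common dispersion 0.0112). The fit was also run on simulated counts in which few genes changed, as many raised as lowered. Those counts held no shift in scale between groups, so they do not bear on the choice of scaling. The alternatives scaled by RLE or by library totals alone, dropped the filter or set it at 1 CPM in 3 libraries, used DESeq2 1.42.0, fitted only the 6 libraries compared, added a replicate block, or used limma 3.58.1 on log2 FPKM with pseudocounts of 1 and 0.1, offsets for gene length, only protein-coding genes, or 1 library fewer.

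The members and all gene lists were chosen with earlier results of these data known. A rule gave, per list and comparison, up to 4 called genes with the smallest p, or the gene with the highest mean CPM where none was called. The 8 members are all named. Only part of the genes given by the rule is named, and Stat3, Ccne1, Gnb4 and Sphk1 are among those left out. Others named include Uri1, as a single exception to a list's direction, Pdrg1 and Pdcl, which the rule did not give, and the 6 genes most alike. Software for tables and figures was Python 3.11.15, pandas 2.3.3, numpy 2.4.6 and matplotlib 3.10.9.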

Additional observations from a re-analysis of the deposited data

How the results depend on the processing

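Of the subunits' log2 fold changes recomputed under the alternatives and with each library left out, 158 values in Au_TCPP against Control, 158 in Au_TCPP against Cu_TCPP and 139 in Cu_TCPP against Control kept their direction and their side of the threshold, and 1, 1 and 15 kept the direction and lost the call. The sign changed 5 times, all for Cct4 in Cu_TCPP against Control, which was not called in any fit: its log2 fold change was -0.03 with TMM, 0.00089 with RLE, 0.0067 with DESeq2, 0.0063 with limma at either pseudocount and -0.046 to 0.0044 leaving out 1 library (lowest without Cu_TCPP replicate 3, highest without Cu_TCPP replicate 2). The call lost in each Au_TCPP comparison was that of Cct2 with library totals alone. That scale gave 2629 genes called higher in Au_TCPP against Control and 2830 in Au_TCPP against Cu_TCPP, against 4783 and 4814 with TMM, since the scale itself moves the median of all genes. Leaving out 1 library, 8 subunits were called higher in both Au_TCPP comparisons each time, and 3 to 6 in Cu_TCPP against Control (3 without Control replicate 1; the cause was not tested). Over all genes these fits called 4225 to 4856 higher and 4616 to 5253 lower in Au_TCPP against Control, 4319 to 4783 and 4100 to 4839 in Au_TCPP against Cu_TCPP, and 2024 to 3627 and 2202 to 3552 in Cu_TCPP against Control. Offsets for gene length gave 0.43 for Cct2 to 1.44 for Cct7 in Au_TCPP against Control, on the log2 scale. Restricting the fit to protein-coding genes left out Cct6a by its biotype, and limma on log2(FPKM + 0.1) lost Cct5 in Cu_TCPP against Control (adjusted p = 0.0502).

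With a replicate block, 8, 8 and 5 subunits were called higher in Au_TCPP against Control, Au_TCPP against Cu_TCPP and Cu_TCPP against Control, where Cct5 was lost (edgeR adjusted p = 0.0564). Over all genes the replicate block gave 4717, 4716 and 2622 called higher. Deviations of libraries with the same number correlated at -0.08 to 0.14, so the numbers were not taken to pair the libraries.

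With 3 libraries a group, no test for a single outlying library was run. The 2 materials were each given at 1 time, and the labels state no dose. Au_TCPP libraries differ from the others in scaling factor and in the share of ribosomal protein counts, and the part of either in the subunits' levels was not tested. Levels are of transcripts: neither the amount of any subunit protein nor the assembled complex was measured. Reads from overlapping genes on the opposite strand could not be separated for Tcp1, Cct6a, Cct7 and Cct8.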
